A study of Rattus norvegicus with 12 samples.

Results

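Apolipoproteins are the protein shells of lipoprotein particles, and 10 of their genes, *Apoa1*, *Apoa2*, *Apoa4*, *Apob*, *Apoc1*, *Apoc2*, *Apoc3*, *Apoe*, *Apoh* and *Apom*, were followed by name through a cell map of the healthy rat liver. They are 10 of the 32883 genes in the deposited table and were chosen by name. Total liver homogenate (TLH), the cell suspension left by 2-step collagenase digestion, was sequenced from 2 Dark Agouti (DA) and 2 Lewis (LEW) rats with 3′ version 2 chemistry. Immune-enriched suspensions, washed further and depleted of red blood cells, came from 1 DA and 1 LEW rat, and nuclei for snRNA-seq came from 2 further DA and 2 further LEW rats, all with version 3 chemistry. Visium sections, on which RNA is captured in spots of tissue that can hold several cells, came from 2 samples labelled Wistar, A and B, which the labels do not tie to animals and the study describes as 2 rats. The labels call the snRNA-seq rats additional animals, yet their file names repeat the sham numbers of the TLH file names, in the other order for DA, so it was not settled whether TLH and nuclei came from separate rats. All animals were healthy males, wild type as far as the labels say, and the DA and LEW file names also carry the word sham. The labels give 8 to 10 weeks of age for the TLH rats, while their file names hold 10 weeks for DA and 13 weeks for LEW, so by the file names age and strain cannot be told apart in these libraries. The study's methods give an older age and describe the strains as matched for it, and the difference between these sources was not settled. The immune-enriched file names hold 9 weeks for both strains, and ages of the other animals were not given in the labels used here.

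Hepatocytes make most plasma apolipoproteins. ApoB is the structural protein of very low density lipoprotein (VLDL), the particle in which the liver exports triglyceride, while ApoA-I and ApoA-II shape high density lipoprotein. The C apolipoproteins ride on both particles and regulate lipoprotein lipase, ApoE is the ligand that brings remnants back to hepatocyte receptors, and macrophages are also known to secrete ApoE. The liver lobule is zoned, with periportal hepatocytes receiving oxygen-rich blood first and pericentral hepatocytes last.

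Clusters were named from marker genes that included no apolipoprotein, and the 10 genes were left out of the variable genes used for clustering. The name hepatocyte-like was given to 16141 TLH cells, 10313 nuclei and 1889 immune-enriched cells. Clusters that failed the first marker comparison were set against the named non-hepatocyte classes, for the hepatocyte name only. All immune-enriched hepatocyte-like clusters, and part of those in TLH and nuclei, were named in that way. The smallest immune-enriched one, of 40 cells, had *Top2a* and *Mki67* among its leading genes. The hepatocyte marker list, 36 genes, summed to 130829 to 152222 CPM (UMIs per 1000000 non-mitochondrial UMIs) in hepatocyte-like TLH cells and 141068 to 185845 in hepatocyte-like nuclei. Kupffer-like cells, the resident macrophages, numbered 1532 in TLH, 324 among nuclei and 161 in the immune-enriched libraries. The class that should hold stellate cells was called mesenchymal-like (1147, 389 and 116) because its markers also include those of fibroblasts and smooth muscle. Its 8 stellate markers, among them *Lrat* and *Ecm1*, summed to 6445 to 7686 CPM in TLH against 345 to 799 in hepatocyte-like cells. Endothelial-like cells numbered 2688, 556 and 541. Clusters left without a name held 527 TLH cells and 892 nuclei, 187 to 283 per nuclei library, and entered none of these classes. Lymphocyte-like cells, which are not known as a source of these proteins and served as a gauge of free RNA, numbered 411 in TLH and 491 in the immune-enriched libraries, with no such class among nuclei. In TLH they were a single cluster led by *Ccl5*, *Gzma* and *Nkg7*. A TLH cluster of 305 cells, with *Ighm* and *Cd3g* among its leading genes, stayed unnamed. In the immune-enriched libraries they pooled clusters of 191, 188 and 112 cells, led by *Ccl5*, *Cd3g* and *Cd79b*, so the gauge differed between these platforms. Total UMIs per library ran from 61441846 to 92484173 (TLH) and from 8039397 to 15186970 (nuclei), and were 48255870 and 60005133 in the immune-enriched libraries and 34449562 and 34827603 in the sections. Pairs of snRNA-seq libraries shared 8 to 24 of 4458 to 10552 barcodes, and the 1793 barcodes common to both sections are positions on the slide. The labels name the 4 TLH livers and the 4 snRNA-seq rats singly, so the spread between libraries of a platform includes that between animals.

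Every apolipoprotein gene was read in hepatocyte-like cells of all 10 dissociated libraries. Levels are CPM of the class in that library. A UMI marks 1 captured molecule at its 3′ end, so the values were not divided by gene length.

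The particle-forming genes came first. *Apob* (ENSRNOG00000005542) was measured at 1354 and 1635 CPM in the DA rats and 1954 and 1772 in the LEW rats in TLH, and at 3141 and 3794 in DA and 4944 and 3658 in LEW in nuclei. *Apoa1* (ENSRNOG00000045679), which activates cholesterol esterification on HDL, stood at 1857 and 2203 in DA and 2367 and 2258 in LEW in TLH and 1958 and 2007 in DA and 2967 and 2594 in LEW in nuclei. *Apoa2* (ENSRNOG00000003500), the second HDL protein, had 6014 and 5369 in DA and 5739 and 8041 in LEW in TLH and 3229 and 2740 in DA and 5913 and 3806 in LEW in nuclei. In both platforms the DA libraries of *Apoa1* lay below the LEW libraries, whereas *Apob* of every nuclei library lay above that of every TLH library. *Apoa4* (ENSRNOG00000055909), an exchangeable protein of chylomicrons and HDL that is made in the rat liver as well as in the intestine, stood at 247 and 383 in DA and 628 and 582 in LEW in TLH and 488 and 411 in DA and 1042 and 969.6 in LEW in nuclei. Its DA and LEW libraries did not overlap in either platform.

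Among the regulators of lipases, *Apoc1* (ENSRNOG00000018426), an inhibitor of lipoprotein clearance, stood at 29636 and 28637 in DA and 19750 and 26709 in LEW in TLH and 10580 and 9143 in DA and 12848 and 6785 in LEW in nuclei. A second row of the gene list, ENSRNOG00000051784, also carries the name *Apoc1* and held only 60.9 to 154 CPM in these cells and nuclei. It was kept apart, since reads of near-identical copies can be split between rows, and the *Apoc1* level is uncertain to that extent. *Apoc2* (ENSRNOG00000018402), the cofactor of lipoprotein lipase, had 3704 and 3797 in DA and 2875 and 3368 in LEW in TLH and 2683 and 2016 in DA and 3075 and 1707 in LEW in nuclei. *Apoc3* (ENSRNOG00000047503), which inhibits that lipase, had 16558 and 17386 in DA and 16707 and 20436 in LEW in TLH and 8662 and 6422 in DA and 13274 and 6635 in LEW in nuclei. For *Apoc1* and *Apoc3* each TLH library exceeded each nuclei library.

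The receptor ligand *Apoe* (ENSRNOG00000018454) stood at 8850 and 10798 in DA and 8895 and 8281 in LEW in TLH and 9797 and 8062 in DA and 10488 and 8154 in LEW in nuclei, and the platforms and strains overlapped. *Apoh* (ENSRNOG00000003566), beta-2-glycoprotein I, which binds phospholipid surfaces, had 2319 and 2790 in DA and 2859 and 2521 in LEW in TLH and 1497 and 1166 in DA and 1730 and 1296 in LEW in nuclei. *Apom* (ENSRNOG00000000850), the HDL carrier of sphingosine 1-phosphate, had 349 and 441 in DA and 487 and 455 in LEW in TLH and 248 and 181 in DA and 289 and 201 in LEW in nuclei. For both, every TLH library exceeded every nuclei library.

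**Figure D1:**
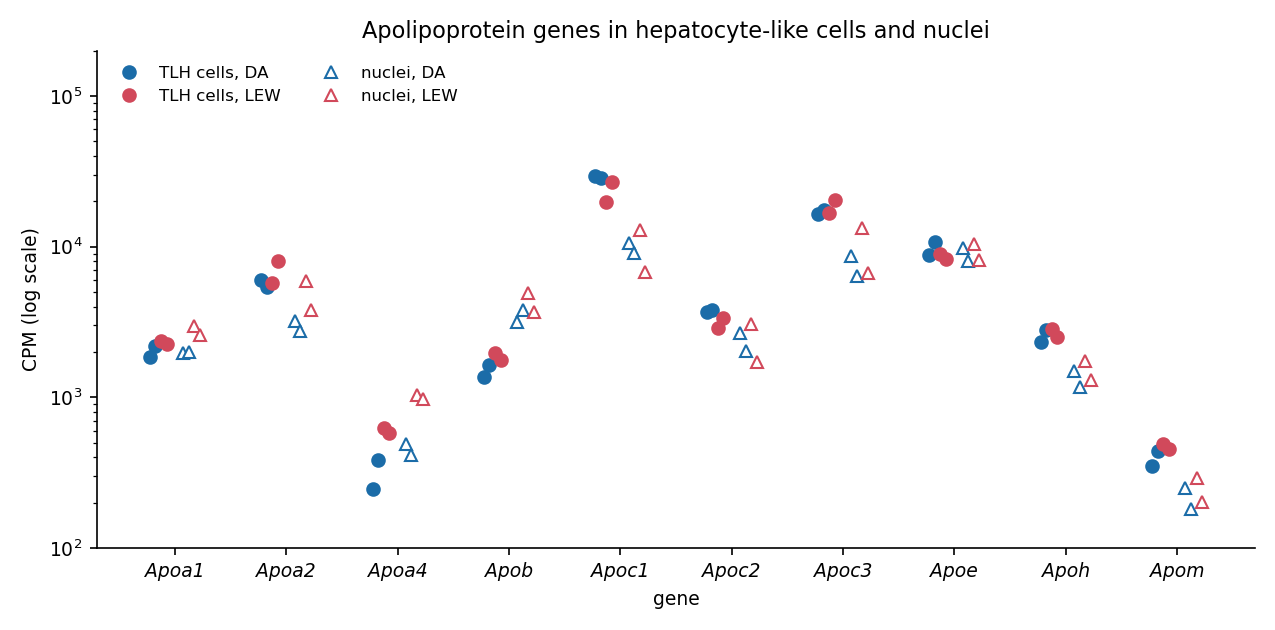
CPM (log axis) of the 10 genes in hepatocyte-like cells of the 4 TLH libraries (filled circles) and hepatocyte-like nuclei of the 4 snRNA-seq libraries (open triangles), 1 point per rat, DA in blue and LEW in red. *Apoc1*, *Apoc3*, *Apoh* and *Apom* lie lower in all nuclei libraries than in all TLH libraries, *Apob* lies higher, and the strains of *Apoa4* and *Apoa1* do not overlap in either platform.

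The genes lie in groups on the chromosomes. In the GRCr8 assembly of RefSeq, *Apoc2* (88457397 to 88462365), *Apoc1* (88475018 to 88479052) and *Apoe* (88481889 to 88485816) follow each other on chromosome 1, and *Apoa1* (55423945 to 55425729), *Apoc3* (55428172 to 55430352) and *Apoa4* (55435779 to 55438160) on chromosome 8. *Apob*, *Apoh*, *Apoa2* and *Apom* each lie apart from the others on chromosomes 6, 10, 13 and 20. The count files rest on the older assembly Rnor_6.0, so these positions serve for neighbourhood only. RefSeq promoters of GRCr8, 250 bases before to 50 bases after a transcription start, were matched for 6 of the 10 genes (*Apoc2*, *Apoc1*, *Apoe*, *Apoa4*, *Apoh* and *Apom*, 9 sequences) and were searched on both strands for TATAAA, the TATA box; GGGCGG, the binding core of Sp1; and AAAGTCCA, the core of the sequence CAAAGTCCA bound by HNF4A, a hepatocyte nuclear receptor. The chromosome 1 neighbours are shown because *Apoe* is the gene whose distribution over cell classes departed from theirs, and *Apoa4* because of its strain values. For *Apoe* the middle of 3 listed starts is shown and for *Apoc1* the upstream of 2; all but *Apoa4* lie on the minus strand, and capitals mark the matches in the order given after each name.
Apoe, chr1:88484650-88484949, minus strand, CCGCCC and GGGCGG: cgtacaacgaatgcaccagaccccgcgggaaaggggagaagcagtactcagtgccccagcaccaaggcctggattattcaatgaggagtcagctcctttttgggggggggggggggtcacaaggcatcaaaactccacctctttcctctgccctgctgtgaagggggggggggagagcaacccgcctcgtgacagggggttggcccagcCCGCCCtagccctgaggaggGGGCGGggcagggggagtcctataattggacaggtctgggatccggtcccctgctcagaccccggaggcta
Apoc1, chr1:88478256-88478555, minus strand, CCGCCC: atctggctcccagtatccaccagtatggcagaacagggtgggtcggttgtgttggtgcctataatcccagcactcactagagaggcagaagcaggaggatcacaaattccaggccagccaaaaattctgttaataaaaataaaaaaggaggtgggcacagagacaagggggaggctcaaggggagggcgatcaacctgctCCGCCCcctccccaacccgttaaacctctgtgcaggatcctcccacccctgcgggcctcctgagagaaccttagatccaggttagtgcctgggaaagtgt
Apoc2, chr1:88462316-88462615, minus strand, TATAAA: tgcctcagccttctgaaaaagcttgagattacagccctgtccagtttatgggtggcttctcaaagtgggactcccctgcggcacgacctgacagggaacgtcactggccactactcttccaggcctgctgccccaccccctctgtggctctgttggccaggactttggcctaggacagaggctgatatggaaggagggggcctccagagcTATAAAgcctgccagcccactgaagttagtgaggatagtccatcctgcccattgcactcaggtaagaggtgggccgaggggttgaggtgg
Apoa4, chr8:55435529-55435828, plus strand, GGGCGG and AAAGTCCA: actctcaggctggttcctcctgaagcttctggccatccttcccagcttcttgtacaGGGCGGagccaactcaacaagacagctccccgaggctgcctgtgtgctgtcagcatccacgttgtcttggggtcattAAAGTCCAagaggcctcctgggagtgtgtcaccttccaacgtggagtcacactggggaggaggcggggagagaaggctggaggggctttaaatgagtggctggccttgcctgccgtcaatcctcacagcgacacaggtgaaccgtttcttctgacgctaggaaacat
TATAAA occurred in 14.2% of all 33469 RefSeq promoters of this length, GGGCGG in 33.1%, AAAGTCCA in 1.37% and the longer CAAAGTCCA, which contains it, in 0.391%. The match in *Apoa4* is to the core only, since the base before it is t, and its window does not hold the longer sequence. None of the searched sequences was found in the *Apoh* and *Apom* windows. The same holds for the window of the upstream *Apoe* start, which is not shown, while that of the downstream *Apoe* start held the same matches as the middle one.

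In TLH the 10 genes were read in every other class at a large part of their hepatocyte-like level. They summed to 6.23% to 7.44% of non-mitochondrial UMIs in hepatocyte-like cells, 5.08% to 6.78% in endothelial-like cells, 4.70% to 6.39% in mesenchymal-like cells, 4.32% to 6.17% in lymphocyte-like cells, 3.41% to 5.31% in Kupffer-like cells and 3.08% to 4.88% in a further myeloid class marked by *Lyz2*. Within a library the sum of these classes was 49.5% to 94.7% of the hepatocyte-like sum, lowest in the *Lyz2* class of LEW replicate 1. Single genes went lower, as *Apoa4* in Kupffer-like cells of LEW replicate 1, at 259 against 628 CPM. Lymphocyte-like cells held 15591 to 26263 CPM of *Apoc1* and 4980 to 8790 of *Apoe*. At least 1 *Apoe* UMI was found in 100% of 411 lymphocyte-like cells (exact 95% binomial interval 99.1% to 100%, counting error only, median 2258 UMIs) and in 100% of 1532 Kupffer-like cells (99.8% to 100%, median 2669 UMIs). The shares were 100% and 99.7% when each cell was thinned to 1500 UMIs. The hepatocyte markers moved with them, at 83293 to 117404 CPM in lymphocyte-like and 72209 to 102598 in Kupffer-like cells. A TLH level in these classes was therefore read only against that background.

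The immune-enriched libraries carried less hepatocyte RNA and separated *Apoe* from the rest. *Apoe* was 2884 CPM in Kupffer-like cells of the DA library against 195 in its lymphocyte-like cells, 14.8-fold, and 5669 against 1772 in the LEW library, 3.20-fold. Endothelial-like cells held 8494 in DA and 7981 in LEW, 43.5-fold and 4.51-fold over lymphocyte-like cells. Mesenchymal-like cells held 3198 and 3925, 16.4-fold and 2.22-fold. Thus 1 of the 10 genes reached 2-fold in both libraries in each of these classes. Of all genes with at least 50 CPM in the class or in lymphocyte-like cells, 25.6% did so in Kupffer-like, 32.9% in mesenchymal-like and 34.3% in endothelial-like cells. With 1 library per strain there was no test. Exact Poisson intervals, which cover counting error only, ran from 2757 to 3015 for *Apoe* in Kupffer-like and from 168 to 225 in lymphocyte-like cells of the DA library. At least 1 *Apoe* UMI was found in 95.7% of Kupffer-like and 67.2% of lymphocyte-like cells over both libraries, at median depths of 12592 and 3767 UMIs. The libraries differed in free RNA and in their mix of classes, so the shares after thinning each cell to 1000 UMIs are given for each. In DA they were 66.2% (53.4% to 77.4%) of 65 Kupffer-like, 18.6% (14.4% to 23.5%) of 301 lymphocyte-like and 95.5% of 223 endothelial-like cells. In LEW they were 79.2% (69.7% to 86.8%) of 96 Kupffer-like, 70.5% (63.5% to 76.9%) of 190 lymphocyte-like and 99.4% of 318 endothelial-like cells. The exact intervals of Kupffer-like and lymphocyte-like cells thus overlapped in LEW and not in DA. They cover counting error among the cells of 1 library and do not compare the strains.

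The other 9 genes did not stand out in macrophages. In Kupffer-like cells *Apoc1* had 43.0 CPM in DA and 549 in LEW against 144 and 1419 in lymphocyte-like cells, and *Apob* had 11.9 and 87.1 against 69.9 and 366. *Apoa1* lay at 0.335 and 0.323 of the lymphocyte-like level, and all 9 lay below it in both libraries, with *Apoa4* at 0 UMIs in the DA cells. These Kupffer-like cells carried the defining macrophage genes *Clec4f* (5661 and 8694 CPM), *Marco* (4944 and 13863) and *C1qa* (12738 and 17066). Endothelial markers summed to 943 and 973 there, against 32232 and 27497 in endothelial-like cells.

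The endothelial-like and mesenchymal-like values need their marker levels beside them. Endothelial-like cells carried *Lyve1* (5618 and 3171 CPM) and *Fcgr2b* (4733 and 4451), and *Clec4f* at 83 and 34, with Kupffer markers summing to 3891 and 3269. That sum includes *Mrc1*, which sinusoidal endothelium also expresses. In the mesenchymal-like class of these libraries, 31 DA and 85 LEW cells, the Kupffer markers summed to 22514 and 36067 and the endothelial markers to 9220 and 12465, so it held RNA of other classes. With the 6% of barcodes of highest doublet score left out, *Apoe* in this class was 785 CPM in DA, 4.08-fold over lymphocyte-like cells, and 3369 in LEW, 1.90-fold, and it no longer reached 2-fold in both. The Kupffer-like and endothelial-like folds were 14.97 and 3.24, and 44.6 and 4.50, under the same exclusion.

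**Figure D2:**
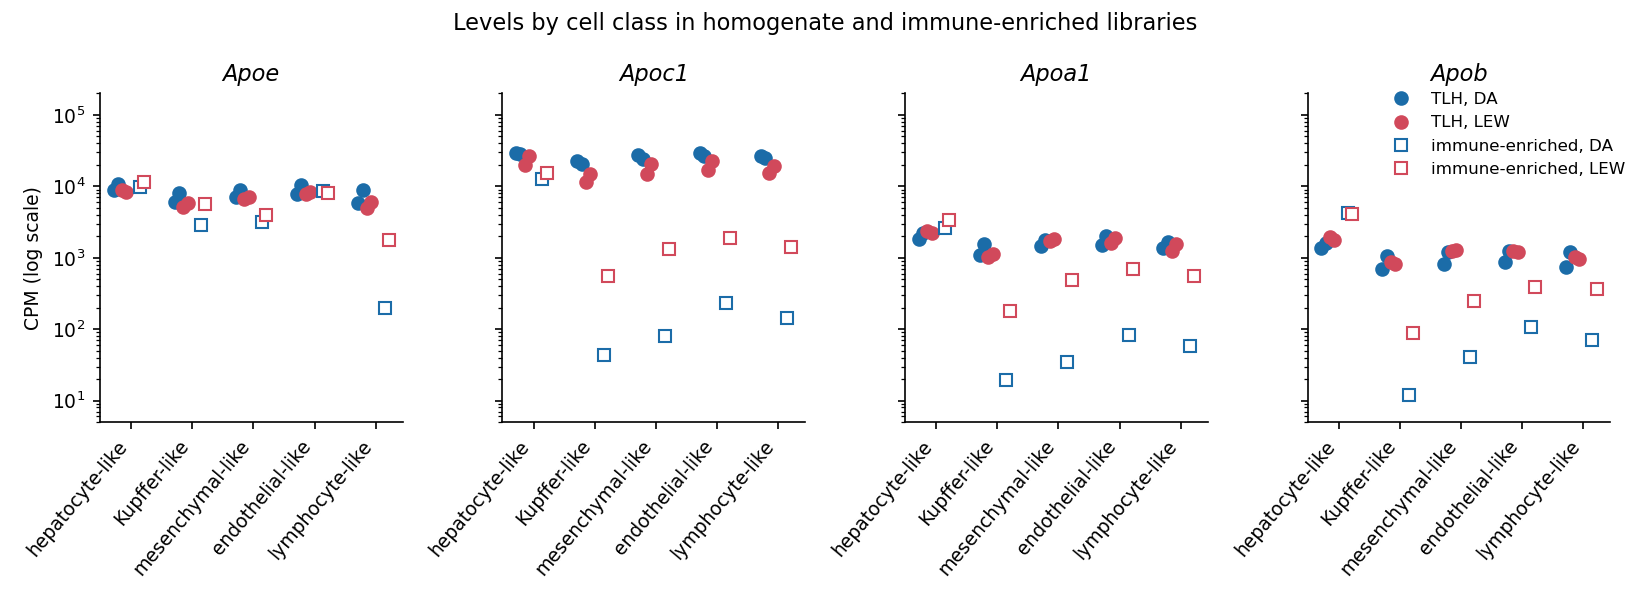
CPM (log axis) of *Apoe*, *Apoc1*, *Apoa1* and *Apob* by cell class, with filled circles for the 4 TLH libraries and open squares for the 2 immune-enriched libraries, DA in blue and LEW in red. In TLH *Apoe* runs from 4980 to 10798 over the classes shown. In the immune-enriched libraries *Apoc1* is 12575 and 15324 in hepatocyte-like cells and at most 1886 in the other classes, *Apoa1* and *Apob* are also lower there than in hepatocyte-like cells, and *Apoe* stays at 2884 to 8494 in Kupffer-like, mesenchymal-like and endothelial-like cells.

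To take account of the hepatocyte RNA in a class, *Apoe* was also set against 13 other genes of secreted hepatocyte proteins, among them *Alb*, *Ttr* and *Fga* (carry-over genes). Such ratios were not constant for hepatocyte genes. *Apoc1* per carry-over UMI in hepatocyte-like cells was 0.668 to 0.875 of the lymphocyte-like ratio in TLH and 1.26 and 1.23 of it in the immune-enriched libraries. In the immune-enriched DA library *Apoe* had 104 UMIs per 1000 carry-over UMIs in hepatocyte-like cells, 142 in lymphocyte-like cells, 3732 in endothelial-like cells and 4972 in Kupffer-like cells. In the LEW library the values were 96.1, 129, 478 and 1291. *Apoc1*, its chromosomal neighbour, had 132, 105, 101 and 74.2 in DA and 127, 103, 113 and 125 in LEW. In endothelial-like and Kupffer-like cells of both libraries the *Apoe* ratio thus rose above the hepatocyte-like and lymphocyte-like values. The *Apoc1* ratio of these classes lay below both values in DA. In LEW it lay above the lymphocyte-like and below the hepatocyte-like value. In TLH the *Apoe* ratio ran from 165 to 182 in Kupffer-like, 167 to 183 in endothelial-like, 129.6 to 167 in mesenchymal-like, 129 to 164 in lymphocyte-like and 121 to 155 in hepatocyte-like cells.

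**Figure D3:**
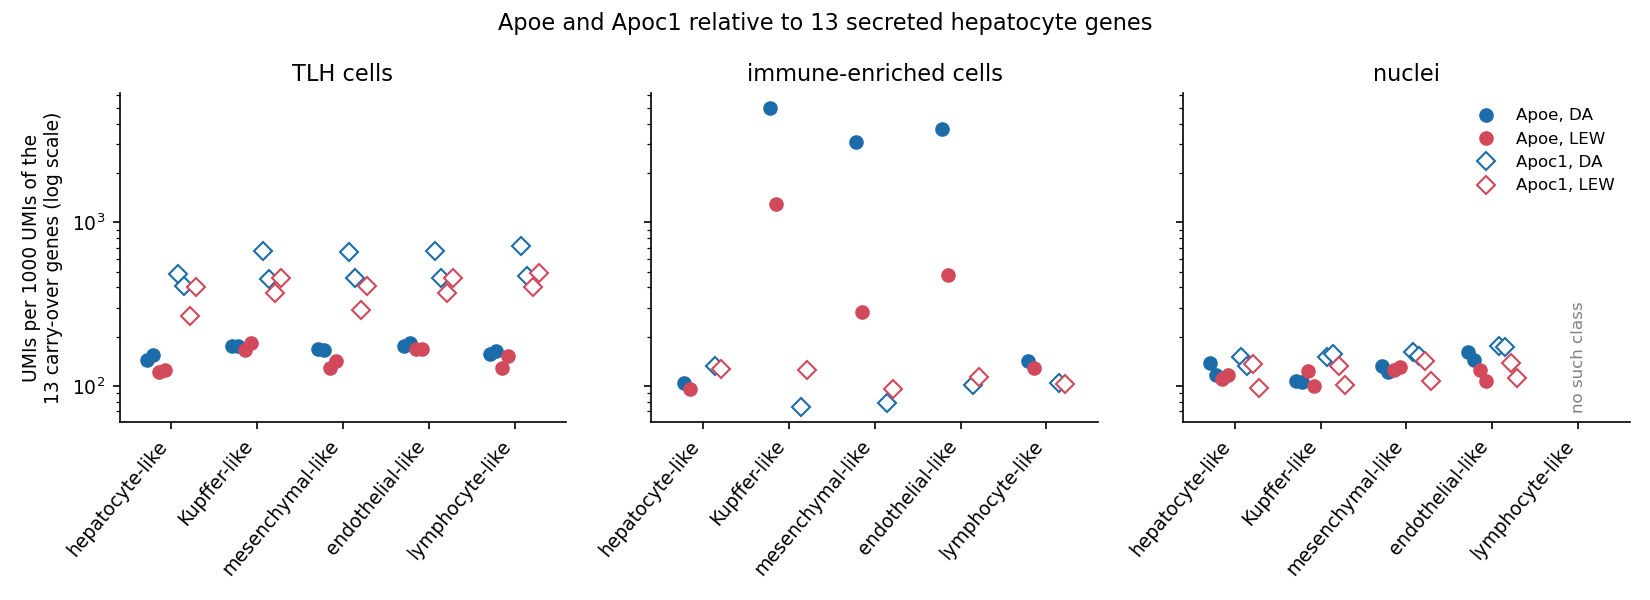
*Apoe* (filled circles) and *Apoc1* (open diamonds) UMIs per 1000 UMIs of the 13 carry-over genes (log axis) by class, 1 point per library, in TLH cells, immune-enriched cells and nuclei. *Apoe* reaches 4972 in DA and 1291 in LEW Kupffer-like immune-enriched cells, whereas *Apoc1* stays between 74.2 and 132 over the classes of those libraries. Nuclei have no lymphocyte-like class.

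The 4 TLH libraries allowed a test between classes of the same rat, by edgeR's quasi-likelihood method with the library as a block and Benjamini-Hochberg adjustment over all genes. Against endothelial-like cells all 10 genes were lower in Kupffer-like cells, by log2 differences from -0.33 to -0.56, where 18.6% of the 7595 genes tested were lower. *Apoe* differed by -0.44 (SE 0.06, adjusted p = 8.01e-09). When the sums were scaled on the carry-over genes in place of TMM factors, 0 of the 10 passed by edgeR, where 50.8% of genes did, and the *Apoe* difference was 0.01 (SE 0.07, adjusted p = 0.889).

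Against lymphocyte-like cells, *Apoe* was the exception. In Kupffer-like cells it stood at 6000 and 8132 in DA and 5077 and 5905 in LEW CPM, and in lymphocyte-like cells at 5793 and 8790 in DA and 4980 and 6020 in LEW. The other 9 genes were lower in Kupffer-like cells (12% of 6018 genes were), while *Apoe* differed by -0.07 (SE 0.06, adjusted p = 0.477) by edgeR. Scaled on the carry-over genes, *Apoe* alone of the 10 was higher, by 0.22 (SE 0.05, adjusted p = 2.40e-04) in edgeR, where 21.7% of 6041 genes were higher. Endothelial-like cells, compared with lymphocyte-like cells after the data had been seen, had higher *Apoe*, 0.37 (SE 0.06, adjusted p = 2.84e-07), *Apoc2*, 0.20 (SE 0.06, adjusted p = 0.00864), *Apoa1*, 0.20 (SE 0.06, adjusted p = 0.0165), and *Apoc3*, 0.14 (SE 0.05, adjusted p = 0.0459), by edgeR, 4 of the 10 against 11.6% of 5226 genes. With the carry-over scaling *Apoe* alone remained, at 0.20 (SE 0.06, adjusted p = 0.00348) by edgeR (7.64% of genes). *Apoe* passed that edgeR comparison with TMM factors also without any 1 of the 4 libraries, at adjusted p from 2.87e-06 to 2.55e-04, while of the other 3 calls *Apoc2* remained without DA replicate 2, *Apoc3* without LEW replicate 1, and none without DA replicate 1, LEW replicate 2 or the highest doublet scores. Per carry-over UMI the Kupffer-like *Apoe* of single libraries was 1.07 to 1.28 of the lymphocyte-like ratio, a departure smaller than the largest of those of *Apoc1* given above, and the part of hepatocyte RNA in it was not tested.

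In mesenchymal-like TLH cells none of the 10 genes passed as higher than in endothelial-like cells, where 8.2% of all genes did, or in lymphocyte-like cells. *Apoe* was 7102 and 8838 in DA and 6598 and 7196 in LEW CPM, and it was lower than in endothelial-like cells by edgeR, -0.21 (SE 0.03, adjusted p = 3.33e-07), as were *Apoc1*, -0.14 (SE 0.03, adjusted p = 3.31e-05), and *Apoa2*, -0.12 (SE 0.03, adjusted p = 0.00303). These 3 compare with 6.29% of 7325 genes lower. *Apoe* alone passed at the stated LEW limit and in DESeq2, where 2.91% of genes were lower. Against lymphocyte-like cells 0 of the 10 passed by edgeR with TMM factors, where 26% of genes did, or with the carry-over scaling, where 25% did. The edgeR difference of *Apoe* was 0.15 (SE 0.07, adjusted p = 0.141), and 0.00 (SE 0.11, adjusted p = 0.988) when scaled on carry-over genes. Kupffer markers summed to 1095 to 2887 CPM in this class and endothelial markers to 1300 to 2726, and their part in the values was not tested.

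Nuclei gave the opposite order for these classes with TMM factors. In mesenchymal-like nuclei 9 of the 10 genes, all but *Apob*, were higher than in endothelial-like nuclei by edgeR, from 0.32 for *Apoc3* to 0.71 for *Apom*, where 9.94% of 6226 genes were higher. *Apoe* stood at 5367 and 4642 in DA and 6191 and 6773 in LEW in mesenchymal-like and 5860 and 3377 in DA and 4798 and 4138 in LEW in endothelial-like nuclei, a difference of 0.39 (SE 0.11, adjusted p = 0.00812). DESeq2 called 1 of the 10, *Apoh*, where 4.77% of genes were higher. By edgeR 2 were called without DA replicate 2, 3 without LEW replicate 1 and 3 without LEW replicate 2, *Apoh* each time. Without DA replicate 1 all 10 were called. Shares of all genes in these smaller fits are not given. The hepatocyte markers moved with it, at 86840 to 109817 against 66671 to 93252 CPM, and with carry-over scaling 0 of the 10 passed by edgeR, where 34.1% of genes did, with *Apoe* at -0.06 (SE 0.11, adjusted p = 0.693). Kupffer-like nuclei, at 3147 and 2729 in DA and 4046 and 3390 in LEW, had lower *Apoe* than endothelial-like nuclei by edgeR, -0.41 (SE 0.12, adjusted p = 0.00544), the 1 gene of the 10 that passed (10.1% of 6394 genes were lower), and it did not pass in DESeq2 (adjusted p = 0.0537). With the carry-over scaling its difference was -0.29 (SE 0.11, adjusted p = 0.0559) by edgeR, and *Apoa4* was then higher at 0.46 (SE 0.17, adjusted p = 0.0429), where 11.4% of genes were. These fits cannot show whether Kupffer-like nuclei held *Apoe* beyond carry-over. The endothelial-like class they rest on was itself high in *Apoe* in the immune-enriched libraries, and nuclei had no lymphocyte-like class as a gauge.

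Genes that handle apolipoproteins were compared between the same classes. Of 49 lipoprotein genes from a fixed list, 39 were tested in TLH between Kupffer-like and endothelial-like cells, and 6 were higher, where 19.4% of all genes were, and 15 lower, where 18.6% were. The median difference of the 39 was -0.21, against -0.02 over all genes. The 6 were *Pltp*, the phospholipid transfer protein, at 3.85 (SE 0.10, adjusted p = 1.14e-34), *Apobec1*, the editing enzyme of *Apob* mRNA, at 2.96 (SE 0.24, adjusted p = 1.15e-14), *Lrp1*, a remnant receptor that binds ApoE, at 2.11 (SE 0.12, adjusted p = 2.48e-10), the cholesterol efflux pumps *Abcg1* at 2.00 (SE 0.19, adjusted p = 1.64e-12) and *Abca1* at 1.77 (SE 0.12, adjusted p = 1.18e-17), and *Nr1h3*, the oxysterol receptor LXR alpha, at 1.55 (SE 0.13, adjusted p = 6.51e-09). All 6 were also higher in Kupffer-like nuclei by edgeR, where 10.2% of all genes were, *Pltp* by 3.11, *Abca1* by 0.79 and *Nr1h3* by 1.40. The 15 lower genes in TLH included the hepatocyte products *Apoc4* and *Apoa5*, at -0.53 and -0.41. Between mesenchymal-like and endothelial-like TLH cells 2 of 39 genes of the list were higher by edgeR, where 8.2% of all genes were, and 2 lower. The higher ones were *Lrp1*, 1.26 (SE 0.10, adjusted p = 5.47e-14), and the bile acid receptor gene *Nr1h4*, 0.88 (SE 0.17, adjusted p = 9.53e-05). In nuclei 4 of 42 were higher by edgeR, where 9.94% of all genes were, and 4 lower. Among the higher ones was *Lpl*, lipoprotein lipase, at 5.49 (SE 0.49, adjusted p = 2.15e-10).

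Hepatocyte-like cells and nuclei differed most, in mean CPM, for *Apoc1*, *Apob* and *Apoc3*. *Apoc1* averaged 26183 ± 4457 in cells and 9839 ± 2544 in nuclei (SD, n = 4 each) CPM, 2.66-fold higher in cells, *Apoc3* 17772 ± 1812 in cells and 8748 ± 3181 in nuclei (SD, n = 4 each), 2.03-fold, and *Apoh* and *Apom* were 1.84-fold and 1.89-fold higher, all without overlap. *Apob* averaged 1679 ± 253 in cells and 3884 ± 760.4 in nuclei (SD, n = 4 each), 0.432 of the nuclear level in cells, also without overlap. Of genes at a mean of 10 CPM, 67.7% did not overlap between the platforms. *Apoe* averaged 9206 ± 1098 in cells and 9125 ± 1209 in nuclei (SD, n = 4 each). In edgeR with TMM factors 8 genes were higher in cells, from *Apoa1* at 0.60 (SE 0.20, adjusted p = 0.0167) to *Apoc1* at 2.10 (SE 0.28, adjusted p = 1.31e-05), *Apob* was lower at -0.50 (SE 0.21, adjusted p = 0.0497), and *Apoa4* did not pass at 0.09 (SE 0.21, adjusted p = 0.709). Of 10964 genes, 34% were higher and 36.7% lower, 70.7% in all, so passing this test was common.

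The direction of 3 genes rested on the scaling. TMM factors raised cell values relative to totals, and on total UMIs the median of all genes moved from -0.07 to -0.87 on the log2 scale and the split from 3726 higher and 4029 lower genes to 1818 and 6489. *Apoa1* was then -0.19, *Apoe* -0.07 and *Apoa4* -0.70, whereas *Apoc1* stayed higher and *Apob* lower in cells under both. Without any 1 library the *Apob* call was lost except when LEW nuclei replicate 2 was left out, with differences from -0.36 to -0.63. Chemistry and sequencer changed with the platform, and whether the animals did was not settled. TLH barcodes below the median depth of their library held 24776 to 38156 CPM of *Apoc1*, in each library more than its hepatocyte-like cells. In nuclei such barcodes held 100986 to 115387 CPM of the carry-over genes, against 68901.9 to 94677.5 in hepatocyte-like nuclei. The part of chemistry, sequencer, animals and free RNA cannot be told apart from a difference between cell and nucleus. Of the lipoprotein list, 13 genes were higher and 13 lower of 43 tested, shares no greater than those of all genes. The higher ones included *Apoc4* at 1.38 and *Pltp* at 1.92 and the lower ones the receptor gene *Scarb1* at -1.44.

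Between strains *Apoa4* showed the largest difference of the 10 in hepatocyte-like cells. The LEW rats stood at 1.99 and 1.85 times the DA mean in TLH and at 2.32 and 2.16 times in nuclei. *Apoc1* stood at 0.678 and 0.917 times in TLH, *Apoc2* at 0.766 and 0.898, *Apob* at 1.31 and 1.19, *Apoa1* at 1.17 and 1.11 and *Apom* at 1.233 and 1.151, and these with *Apoa4* were the 6 of the 10 genes whose strains did not overlap in TLH, where 56.2% of genes at a mean of 10 CPM did not. In nuclei 3 of the 10 did not overlap, against 35.7% of genes, *Apoa4*, *Apoa1* (1.497 and 1.309 times) and *Apoa2* (1.98 and 1.28 times), and for the rest LEW replicate 1 lay above and LEW replicate 2 near or below the DA mean, as for *Apoc1* (1.30 and 0.688 times). The immune-enriched hepatocyte-like cells held 175 CPM of *Apoa4* in DA and 970.4 in LEW.

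None of the 10 passed the strain test by edgeR in either platform with all libraries, TMM factors, the low-count filter and no block. In TLH, where 4.37% of 9870 genes passed, *Apoa4* differed by 0.94 (SE 0.23, adjusted p = 0.0803) at an unadjusted p of 0.00548, the 1 gene of the 10 under 0.05 against 21.1% of all genes, and in nuclei, where 1.83% of 10255 passed, by 1.18 (SE 0.41, adjusted p = 0.233) at an unadjusted p of 0.0114, again the 1 gene under 0.05, against 10.2%. DESeq2 called *Apoa4* in both, at adjusted p = 0.00655 and 0.0403, and no other of the 10, where 4.02% and 2.22% of genes were called. Leaving out DA replicate 2 of TLH gave 1.36 with adjusted p = 0.00184 in edgeR, and leaving out DA replicate 1 gave 0.63. The strain difference of *Apoa4* was compared between platforms in an edgeR interaction, -0.20 (SE 0.47), and 0 of the 10 passed it or had an unadjusted p under 0.05, where 0.00873% of 11453 genes passed and 4.4% had one. Of the lipoprotein list 2 of 43 genes passed in TLH and 2 of 42 in nuclei. *Apol3*, a member of another apolipoprotein family, was lower in LEW in both platforms by edgeR, -2.41 (SE 0.18, adjusted p = 5.26e-04) and -2.69 (SE 0.34, adjusted p = 4.27e-04), while *Abcg5*, a sterol pump, was higher in TLH at 1.45 (SE 0.22, adjusted p = 0.0107), and *Sort1*, sortilin, a sorting receptor that binds ApoB, was higher in nuclei at 2.36 (SE 0.53, adjusted p = 0.0323).

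In the other TLH classes 2 genes in Kupffer-like and 1 in mesenchymal-like cells differed between strains. *Apoc1* was lower in LEW in Kupffer-like cells by edgeR, at 22785 and 20825 in DA and 11380 and 14852 in LEW CPM, -0.77 (SE 0.18, adjusted p = 0.0125), as was *Apoc2*, -0.65 (SE 0.16, adjusted p = 0.0218), 2 of the 10 against 4.03% of 6447 genes. Neither was called when the LEW cells were filtered at the stated UMI limit, nor without either LEW library. *Apoa4* was higher in mesenchymal-like cells of LEW by edgeR, 0.94 (SE 0.22, adjusted p = 0.0436), against 0.935% of 5026 genes, and lost the call without DA replicate 1 or LEW replicate 1, at the stated limit and in DESeq2 (adjusted p = 0.126). In endothelial-like cells 0 of the 10 passed by edgeR, where 3.03% of genes did, with 3 of the 10, *Apoc1*, *Apoc2* and *Apoa4*, at an unadjusted p under 0.05, against 18.2%. With the replicate number as a block 2 of the 10 passed in these cells, where 430 of 7360 genes did. Barcodes below the median depth of their library, an estimate of the free RNA, had *Apoc1* at 38156 and 34831 CPM in DA and 24776 and 31551 in LEW, and *Apoa4* at 181 and 324 in DA and 402 and 445 in LEW. The strain values of these classes cannot be told apart from those of hepatocyte RNA in the same libraries.

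Zonation was read in hepatocyte-like nuclei by a score of 15 periportal less 14 pericentral genes, none of them an apolipoprotein, and each library was cut into tertiles of nuclei. The 892 unnamed nuclei were left out of the tertiles. Their 10-gene sums were 29.7% to 42.4% of the hepatocyte-like sums of the same libraries. Unnamed clusters of 427 and 372 nuclei, at median depths of 3159 and 4048 UMIs, had *Fmo1* among their leading genes. So had a hepatocyte-like cluster with *Glul*. The cluster of 372 also had *Cyp7a1*, a gene of the pericentral list. Counting them as hepatocyte-like was run only as an alternative. Median depths were then 1367 to 1999 UMIs pericentral and 1770 to 2437 periportal. The part of their exclusion in the pericentral levels was not tested. *Apoa2* fell from 6333 and 4987 in DA and 7406 and 6131 in LEW CPM in the pericentral tertile to 1086 and 1239 in DA and 4020 and 2078 in LEW in the periportal tertile, and every pericentral value exceeded every periportal one. *Apoe* went from 16549 and 11924 in DA and 11378 and 12541 in LEW to 3728 and 4840 in DA and 8637 and 4741 in LEW. *Apoa4* went from 557 and 357 in DA and 870.4 and 1036 in LEW to 383 and 427 in DA and 1152 and 847 in LEW and had no common direction over the 4 rats. By edgeR 9 of the 10 were lower in the periportal tertile, where 21.8% of 9030 genes were lower, led by *Apoa2* at -2.12 (SE 0.25, adjusted p = 6.71e-06), *Apoe* at -1.67 (SE 0.25, adjusted p = 9.50e-05), *Apom* at -1.54 (SE 0.22, adjusted p = 6.39e-05) and *Apoc1* at -1.41 (SE 0.23, adjusted p = 1.71e-04). *Apoa1* was near the threshold at -0.48 (SE 0.19, adjusted p = 0.0487), while its levels differed by -0.55 and 0.23 in DA and 0.10 and -0.26 in LEW in the single rats, and *Apoa4* did not pass at -0.40 (SE 0.19, adjusted p = 0.0939). On total UMIs the same 9030 genes split into 3641 higher and 1037 lower in place of 1808 and 1968.

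This broad fall moved with depth and with other hepatocyte genes. The periportal tertiles had median UMIs of 2237, 2364, 1730 and 2141 per nucleus and the pericentral tertiles 1307, 1403, 1383 and 1565, in the order DA 1, DA 2, LEW 1 and LEW 2. *Alb* differed by -1.05 and -0.67 in DA and 0.11 and -0.69 in LEW on the log2 scale and *Ttr* by -1.58 to -0.24. With only the zone genes that the study names, the median depths were 1368 to 2054 UMIs pericentral and 1489 to 1884 periportal, and 1 of the 10, *Apoa2*, was lower by edgeR, -0.80 (SE 0.20, adjusted p = 0.029), against 1.36% of genes. Its rats stood at -1.53 and -0.80 in DA and -0.21 and -0.62 in LEW. With the score taken as a share of UMIs *Apoa2* was again the 1 gene that passed in edgeR, -1.15 (SE 0.23, adjusted p = 0.00417), against 1.97%. *Apoe* was -0.29 (SE 0.20, adjusted p = 0.72) and -0.52 (SE 0.22, adjusted p = 0.266) in these edgeR fits and did not pass.

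Relative to the carry-over genes, a scaling added after the data had been seen, the order of the genes stayed and the zero moved. *Apoa2*, -1.12 (SE 0.12, adjusted p = 6.25e-04), *Apoe*, -0.68 (SE 0.11, adjusted p = 0.0032), *Apom*, -0.55 (SE 0.16, adjusted p = 0.0115), *Apoc1*, -0.41 (SE 0.09, adjusted p = 0.00425), and *Apoh*, -0.29 (SE 0.11, adjusted p = 0.0381), were lower in the periportal tertile by edgeR, and *Apoa1*, 0.51 (SE 0.14, adjusted p = 0.00911), and *Apoa4*, 0.59 (SE 0.15, adjusted p = 0.00644), were higher. In that fit 64.1% of genes were higher and 1.08% lower, so it places the genes relative to other hepatocyte genes only. *Apoa2* was lower in the periportal tertile in every edgeR and DESeq2 setting run. LEW replicate 1 had the smallest fall for 8 of the 9 genes, as for *Apoa2* (-2.54 and -2.01 in DA and -0.88 and -1.56 in LEW). The difference between strains was tested by edgeR's interaction term, in which *Apoa2* alone of the 10 passed, 1.30 (SE 0.32, adjusted p = 0.0209), with a smaller fall in LEW, where 3.48% of 9030 genes had a higher term. In DESeq2 higher terms passed for 8 of the 10, where 4.65% of genes had one. By edgeR they passed for 8 with the unthinned score and with the unnamed clusters. They passed for 7 without the highest doublet scores and for 5 on DESeq2's size factors. The 4.65% is of the DESeq2 fit only, and the shares of the other fits are not given. None passed by edgeR with the zone score as a share of UMIs, with clusters ranked in place of nuclei or with the carry-over scaling. The *Apoa2* call was lost without DA replicate 1 (1.06, edgeR adjusted p = 0.377) or LEW replicate 1 (1.01, adjusted p = 0.252), and with the study's zone genes (0.99, adjusted p = 0.0872). The genes called split into 314 higher and 108 lower terms, and into 92 and 402 on total UMIs. The zone score spread less in LEW, with an SD of 0.636 and 0.668 in DA and 0.539 and 0.596 in LEW. Median depths of the 2 tertiles, given above, also lay closer in LEW. The part of both in the interaction was not tested.

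Of 41 lipoprotein genes tested in the same way, 15 were lower in the periportal tertile by edgeR, where 21.8% of all genes were, and 7 higher, where 20% were. Their median difference was -0.15, against 0.08 over all genes. The lower ones included *Mttp*, which loads lipid onto ApoB, at -0.96 (SE 0.18, adjusted p = 4.66e-04), *Apoc4* at -1.19, *Lipc*, hepatic lipase, at -0.72, and *Lcat*, the cholesterol esterifying enzyme, at -0.58. The higher ones included the sterol pump gene *Abcg5* at 2.08 (SE 0.22, adjusted p = 1.74e-06) and the lipase inhibitor *Angptl4* at 0.70. The depths above apply to these values too.

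**Figure D4:**
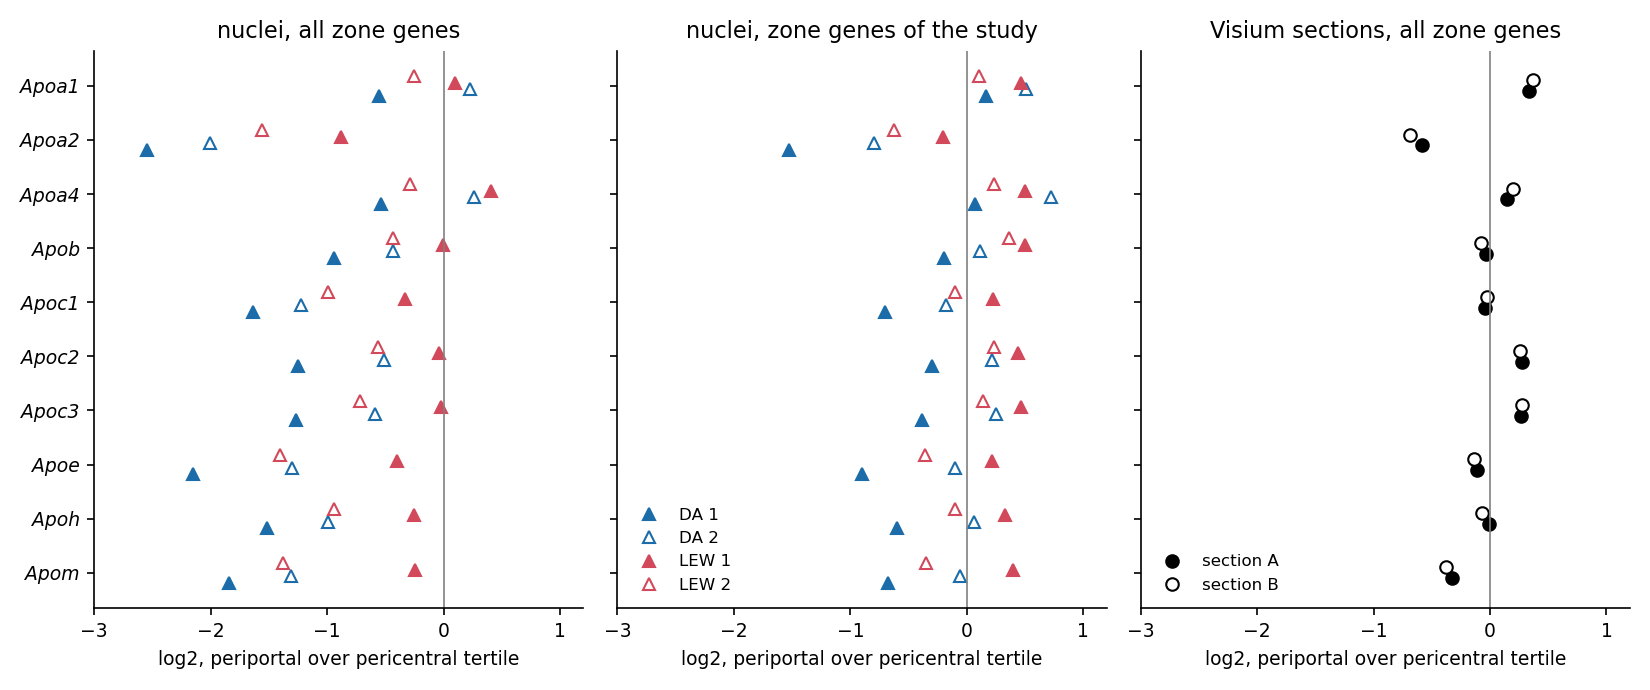
Difference between periportal and pericentral tertiles (log2, x axis) for the 10 genes, in the 4 snRNA-seq libraries with all zone genes (left), in the same libraries with the zone genes named by the study (centre), and in the 2 Visium sections with all zone genes (right). Each point is 1 library or section. *Apoa2* lies left of 0 in every library and section, while *Apoa1* lies right of 0 in the centre and right panels.

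On the Wistar sections, where spots of tissue replace dissociated nuclei, with sections marked A and B, the genes parted into 3 patterns. From the pericentral to the periportal quintile of spots *Apoa2* went from 5279 to 3194 CPM (A) and from 4952 to 2771 (B), falling at each step, and *Apom* from 661 to 497 CPM (A) and from 646 to 489 (B). *Apoa1* went from 1991 to 2634 CPM (A) and from 1916 to 2597 (B), *Apoc3* from 10715 to 13284 CPM (A) and from 10302 to 12796 (B) and *Apoc2* from 2263 to 2818 CPM (A) and from 2079 to 2593 (B), each rising at each step. *Apoe* went from 20658 to 18354 CPM (A) and from 21330 to 18615 (B), with most of the step between the first quintile and the next. *Apoc1* peaked in the middle quintile, at 10722 and 10383, above 9942 and 9619 in the periportal quintile.

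Between tertiles of spots the log2 difference was -0.59 (A) and -0.69 (B) for *Apoa2* and -0.33 (A) and -0.38 (B) for *Apom*, the 2 genes past 1.2-fold pericentral in both sections. It was 0.34 (A) and 0.37 (B) for *Apoa1* and 0.27 (A) and 0.27 (B) for *Apoc3*, with *Apoc2* at 0.28 (A) and 0.26 (B) and *Apoa4* at 0.14 (A) and 0.19 (B), so 4 of the 10 were higher periportal in both and 2 of them, *Apoa1* and *Apoc3*, passed 1.2-fold in both. *Apoc3* was close to that limit and missed it in both sections with the zone genes of the study, and in section A with the score as a share of UMIs. *Apoe* stood at -0.12 (A) and -0.14 (B), and *Apob*, *Apoc1* and *Apoh* between -0.08 and -0.01. Of genes over 10 CPM, 7.42% in section A and 8.13% in section B passed 1.2-fold periportal, and 7.48% and 8.61% passed it pericentral. These shares are of each section singly, and shares of all genes in both sections are not given. The median log2 difference of these genes was -0.003 (A) and -0.015 (B). Each section gave 1 value and no test was made. Median UMIs rose from 13091 to 14525 per spot in section A and from 12781 to 15856 in section B, and with spots under 5000 UMIs left out *Apoa2* was -0.60 (A) and -0.70 (B) and *Apoa1* 0.34 (A) and 0.38 (B). A spot holds all cell types of its place, so fewer hepatocytes and less RNA per hepatocyte cannot be told apart.

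**Figure D5:**
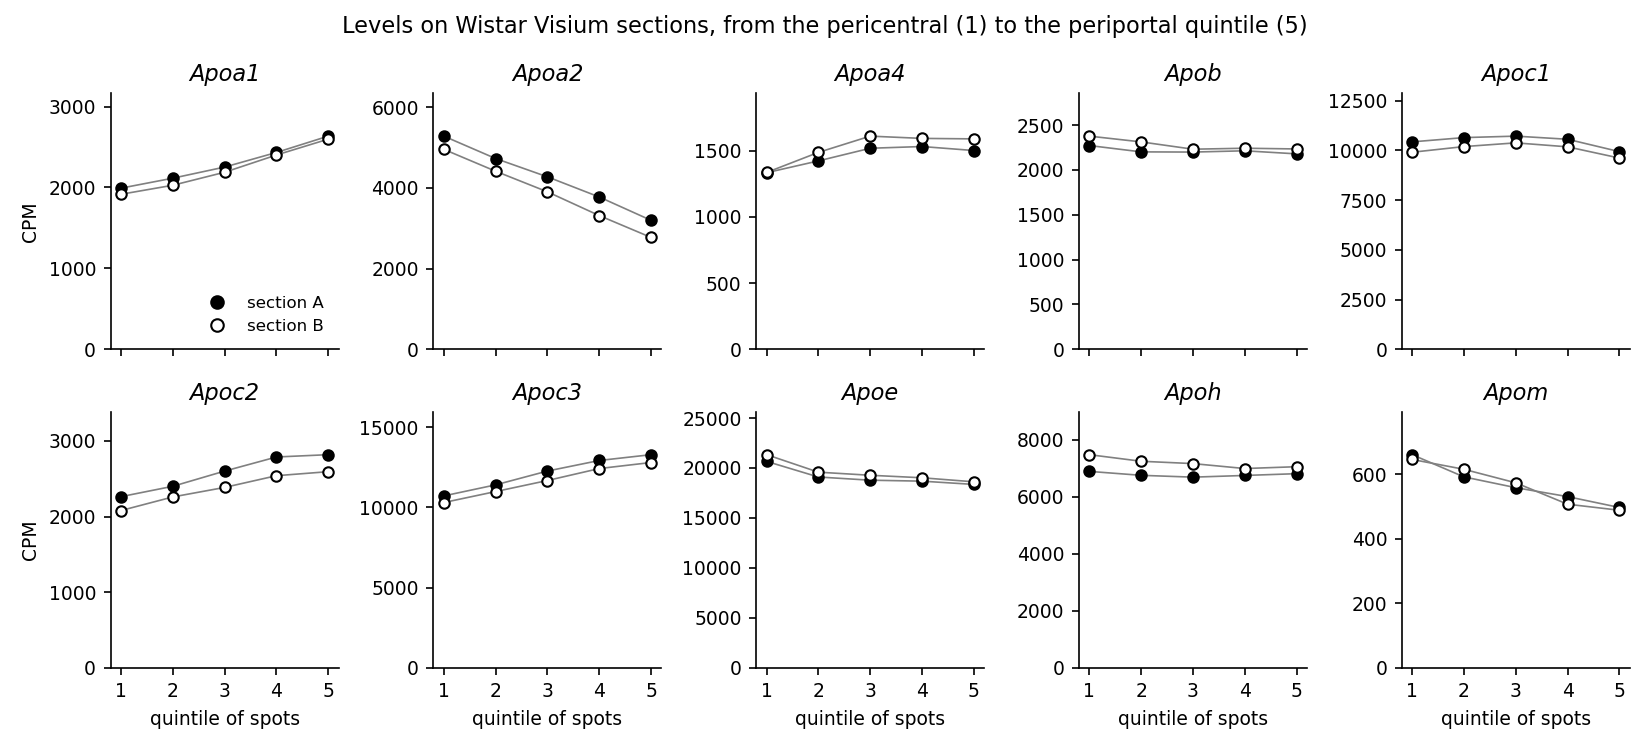
CPM of each of the 10 genes in quintiles of the spots of Wistar sections A (filled) and B (open), ordered by zone score from the pericentral (1) to the periportal (5) quintile, with each y axis starting at 0. *Apoa2* and *Apom* fall and *Apoa1*, *Apoc2* and *Apoc3* rise in both sections.

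Over 24 sums of TLH classes by library, the genes most like each apolipoprotein were other hepatocyte genes. By Pearson correlation of log2(CPM + 1) among 9700 genes, *Apoe* was closest to *Ambp* (0.93), *Vtn* (0.93) and *Hp* (0.93), *Apoa1* to *Rbp4* (0.97), *Apoh* (0.96) and *Vtn* (0.95), and *Apoh* to *Alb* (0.98), *Gc* (0.98) and *LOC501233* (0.98). *Apoa2* was closest to *Apoc3* (0.92), *Rup2* (0.92) and *LOC100360095* (0.91), *Apoc3* to *Ttr* (0.98), *Phyh* (0.96) and *LOC100360095* (0.94), and *Apoa4* to *Fgl1* (0.93), *Serpina1* (0.93) and *Cyp2d5* (0.92). *Apob* was closest to *AABR07004549.1* (0.98), *Gc* (0.97) and *Itih3* (0.96), *Apoc1* to *LOC259244* (0.98), *Apoc4* (0.97) and *Bhmt* (0.97), *Apoc2* to *AABR07048474.1*, *Apoc1* and *Igfbp4* (each 0.96), and *Apom* to *Rbp4* (0.96), *Apoa1* (0.95) and *Apoh* (0.93). The sums share libraries, depth and free hepatocyte RNA, so these values only describe them.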

How the data were processed

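UMI counts per gene and barcode were used as deposited. The authors made them with Cell Ranger 3.1.0 for TLH, immune-enriched and snRNA-seq libraries and Space Ranger 1.1.0 for Visium, on a custom reference of Rnor_6.0, without normalisation and before their own filters. Gene names for TLH and immune-enriched matrices were taken from the snRNA-seq list, which has the same number of rows and was taken to be in the same order, and their barcodes were not used here.

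Barcodes were kept at 1500 UMIs for DA replicate 1 of TLH, 2000 for the other TLH libraries, and 1000 for nuclei and immune-enriched libraries, with mitochondrial shares of at most 20% to 50% in cells and 10% in nuclei. The study states a lower limit for the LEW TLH libraries, which was run as an alternative. This left 6623, 7112, 5457 and 3844 TLH cells, 2205, 2557, 5262 and 2501 nuclei, and 1163 and 2677 immune-enriched cells (DA before LEW). All 2437 and 2404 Visium spots were kept. Counts were normalised with sctransform 0.4.2, joined on 15 components by a rewritten form of the Harmony method, not the published package, and clustered with Seurat 5.3.0. Scrublet (scanpy 1.11.5) marked too few doublets to have worked, so the 6% highest scores were left out only as an alternative.

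Counts were summed per library and class and tested with edgeR 4.0.16 (quasi-likelihood, TMM, default filter on low counts, Benjamini-Hochberg, threshold 0.05), with DESeq2 1.42.0 as an alternative. All 10 genes passed the filter in each test. The fits were also run on simulated counts with a fixed spread between libraries and no free RNA. Their error rates on the real counts were therefore not tested. Levels are CPM, UMIs per 1000000 non-mitochondrial UMIs, and replicate numbers shared by the strains were not taken to pair the samples. The genes, the 49 matched genes of the lipoprotein list and the other lists were chosen with earlier results of these data known. All 10 genes were described in every comparison whether or not they passed, with the 3 genes most correlated with each, and further lipoprotein genes were named as examples after their values were seen. Alternatives covered scaling, low-count filter, doublets, cell limits, zone score, background class, replicate block and leaving out each library.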

Additional observations from a re-analysis of the deposited data

Results flagged for a closer look

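The zone difference of *Apoa2* in hepatocyte-like nuclei differed between strains by the interaction term of edgeR, 1.30 on the log2 scale (SE 0.32, adjusted p = 0.0209), with all 4 rats lower in the periportal tertile (-2.54 and -2.01 in DA, -0.88 and -1.56 in LEW). The zone score spread less in LEW (SD 0.539 and 0.596) than in DA (0.636 and 0.668), and median depths of the tertiles lay closer. Their part was not tested. The call was lost without DA replicate 1 (1.06, edgeR adjusted p = 0.377) or LEW replicate 1 (1.01, adjusted p = 0.252), with the study's zone genes (0.99, adjusted p = 0.0872), the score as a share of UMIs (1.18, adjusted p = 0.11), ranked clusters (1.25, adjusted p = 0.468) and carry-over scaling (0.40, adjusted p = 0.157).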

How the results depend on the processing

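Counts below are of the 10 genes past the threshold. Over all genes, strain without the low-count filter called 1137 of 15855 in hepatocyte-like TLH cells. It called 227 of 13079 in mesenchymal-like and 502 of 13857 in endothelial-like TLH cells. The endothelial-like strain fit on total UMIs called 308 of 7360 genes. Where no count or share of all genes stands beside an alternative, it is not given. Strain in hepatocyte-like TLH cells gave 0, and 1 with DESeq2, without the low-count filter and with a replicate block on crossed DA numbers, and 0 to 1 without single libraries. Kupffer-like cells gave 2, then 1 with DESeq2 and 0 at the stated LEW limit, where 470, 187 and 253 genes were called in all. The count also moved without single libraries. Mesenchymal-like cells gave 1, then 0 with DESeq2, total UMIs or the stated limit, 2 without the filter, and 0 to 2 without single libraries. Endothelial-like cells gave 0, then 3 without the filter, 1 on total UMIs, and 0 without single libraries. Nuclei gave 0, then 1 with DESeq2, and 0 without single libraries. Strain by platform gave 0 without any library, and cells against nuclei gave 9, then 6 to 9.

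Kupffer-like against endothelial-like TLH cells gave 10, then 0 on carry-over scaling, 4 (higher, as were 72.5% of all genes) against hepatocyte-like cells on that scaling, 1 (higher) against lymphocyte-like cells on it, and 9 to 10 without single libraries. In nuclei it gave 1, then 0 with DESeq2, 3 on total UMIs, 2 without the highest doublet scores, and 1 to 2 without single libraries. On carry-over scaling it gave 1 (higher) against endothelial-like nuclei, where 11.4% of all genes were higher. It also gave 1 (higher) against hepatocyte-like nuclei on that scaling, for which the share of all genes is not given. Mesenchymal-like against endothelial-like TLH cells gave 3, then 1 with DESeq2, the stated limit or carry-over scaling, 0 against lymphocyte-like cells on either scaling, 5 (higher, as were 59% of all genes) against hepatocyte-like cells, and 2 to 3 without single libraries. In nuclei it gave 9, then 1 with DESeq2, 0 on carry-over scaling with either class, and 2 to 10. Endothelial-like against lymphocyte-like cells gave 4, then 1 on carry-over scaling and without the highest doublet scores, and 1 to 2. The lymphocyte-like alternative could not be run in nuclei.

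Zone gave 9, then 1 with the study's zone genes or the UMI-share score, 3 with the study's genes on carry-over scaling, and 7 to 10 without single libraries. Zone by strain gave 1, then 5 with DESeq2 size factors, 8 with DESeq2, the unthinned score or the unnamed clusters, 2 without the filter, 7 without the highest doublet scores, 0 with the study's genes, the UMI-share score, ranked clusters or carry-over scaling, and 0 to 7. Over all genes, zone called 3776, 214 with the study's genes, 353 with the share score, 6097 on carry-over scaling and 1979 to 4199 without single libraries. The Visium count of 4 higher periportal genes was the same in all settings, those past 1.2-fold were 2, then 1 with the study's genes or the share score and 3 between quintiles, and 3 pairs of gene and class in immune-enriched cells became 2 without the highest doublet scores.

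Directions reversed as follows (log2). Cells against nuclei on total UMIs gave *Apoa1* -0.19, *Apoa4* -0.70 and *Apoe* -0.066. Kupffer-like TLH cells against hepatocyte-like cells on carry-over scaling gave *Apoa1* 0.067, *Apoa2* 0.30, *Apoc1* 0.31, *Apoc2* 0.23, *Apoc3* 0.26, *Apoe* 0.36, *Apoh* 0.12 and *Apom* 0.086; against endothelial-like cells on it *Apoa4* 0.11, *Apob* 0.040, *Apoe* 0.012 and *Apoh* 0.0076; and against lymphocyte-like cells on it *Apob* 0.034, *Apoc2* 0.038 and *Apoe* 0.22. Mesenchymal-like TLH cells against hepatocyte-like cells gave *Apoa2* 0.23, *Apoc1* 0.18, *Apoc2* 0.20, *Apoc3* 0.23 and *Apoe* 0.15, and against lymphocyte-like cells *Apoe* 0.15, or 0.0032 on carry-over scaling. Mesenchymal-like nuclei on it gave *Apoa1* -0.032, *Apoa2* -0.095, *Apoa4* -0.086, *Apoc1* -0.081, *Apoc2* -0.052, *Apoc3* -0.13 and *Apoe* -0.060, and endothelial-like against lymphocyte-like cells *Apoc3* -0.021. Zone gave *Apoa1* 0.30, *Apob* 0.18, *Apoc2* 0.14 and *Apoc3* 0.11 with the study's genes, *Apoa1* 0.26, *Apob* 0.25, *Apoc2* 0.051 and *Apoc3* 0.0033 with the share score, *Apoa1* 0.51, *Apoa4* 0.59, *Apob* 0.18 and *Apoc2* 0.044 on carry-over scaling, and *Apoa1* 0.15 and *Apob* 0.035 with the study's genes on it. The cause was not tested.

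Same-numbered samples had no common direction of deviation (correlations -0.20 in TLH and 0.15 in nuclei between strains, -0.38 in DA and 0.20 in LEW between platforms), so the numbers were not taken as pairs. In the order of the DA file names the DA value takes the opposite sign, and a block in that order called 8314 genes between cells and nuclei. With the replicate block the endothelial-like strain count was 2, *Apoa4* in hepatocyte-like cells was 0.99 (edgeR adjusted p = 0.0969) in TLH and 1.18 (adjusted p = 0.0869) in nuclei, and over all genes strain called 207 in place of 431 in TLH (1236 with crossed DA numbers) and 540 in place of 188 in nuclei, and cells against nuclei 8057 in place of 7755. With 2 rats a strain, the precision of strain values rests on the spread between those rats, and the immune-enriched Kupffer-like and mesenchymal-like values rest on 1 library per strain and 31 to 96 cells each.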
